A study of Mus with 12 samples.

Results

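Transcripts of 10 genes best known from T cells and natural killer (NK) cells were followed in RNA sequencing libraries of mouse primary peritoneal macrophages. The genes were chosen by symbol (Gzma, Gzmb, Prf1, Nkg7, Ncr1, Klri1, Klrb1c, Il2rb, Cd3e and Cd3g), and all 10 were found among the 27294 genes of the deposited table. The study crossed genotype with treatment in 12 libraries, with n = 3 in each of 4 groups: knockout (KO) with oxLDL, wild type (WT) with oxLDL, untreated KO and untreated WT. OxLDL is oxidised low-density lipoprotein, a modified cholesterol carrier that macrophages take up. The treatment labels say oxLDL where the sample titles say LDL, and the untreated libraries carry no treatment label. The labels name no deleted gene, no Cre driver, no mouse strain and no age, while the series title names the kinase WEE1, the NF-κB subunit p65 and atherosclerosis. The protocol text speaks of an adipose type, which differs from the macrophage label. Nothing states that replicates came from separate animals, so the p-values measure the spread between these libraries, which may be technical.

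NK cells and cytotoxic T cells kill by releasing granules in which perforin opens the target membrane and granzymes enter to start cell death. NK cells recognise targets through germline-encoded receptors, many of them encoded together in the NK gene complex, whereas T cells signal through a rearranged receptor held by the CD3 chains. Both depend on IL-2 and IL-15, which share the receptor chain encoded by Il2rb. Lymphocytes live in the peritoneal cavity beside macrophages, and activated macrophages can transcribe some of these genes themselves. In bulk RNA, fewer cells of a type and less RNA per cell cannot be told apart.

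Library totals ran from 53588814 to 76809931 counts, with WT replicate 2 lowest among both oxLDL and untreated libraries. Wee1 had 1.25 to 1.60 FPKM (fragment counts scaled by transcript length and library size) in KO oxLDL and 1.44 to 1.78 FPKM in WT oxLDL libraries. It had 1.22 to 1.63 FPKM in untreated KO and 2.80 to 3.25 FPKM in untreated WT libraries, so it was not absent from KO. Pairs of libraries were compared by a median over genes with at least 100 counts in the pair, scaled by library totals alone. A KO oxLDL library differed from an untreated KO library by 8.05 to 15.5 times the variance that counting alone gives. Libraries of 1 group differed by 8.19 to 14.3 times, whereas WT oxLDL and untreated WT libraries differed by 177 to 226 times. With library totals the median log2 difference between these 2 WT groups was -0.46, against -0.06 with TMM scaling, so the last range includes this shift. The 16 macrophage markers summed to 16837 to 17595 CPM (counts-per-million of the library total) in KO oxLDL, 24893 to 26104 in WT oxLDL, 17322 to 18250 in untreated KO and 33609 to 34057 in untreated WT libraries. Lyz2 made up 67.1 to 75.8% of that sum. Without Lyz2, left out after its values were seen, the sum was 5439 to 5545 CPM in KO oxLDL and 8196 to 8402 in WT oxLDL libraries. Untreated, it was 5391 to 5578 in KO and 8231 to 8369 in WT libraries, so KO lay below WT. The 2 WT groups overlapped as shares of the library total, which may not hold after TMM scaling. Among low values, counts of 4 were held by 822 to 914 genes a library, against 376 to 479 genes at 3 and 248 to 296 at 5. No source used here says what 1 count stands for, so counting intervals and floors may be too tight.

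The 10 genes together were nearly silent in KO libraries and present at low levels in every WT library. Their counts summed to 39 in KO oxLDL, 3118 in WT oxLDL, 51 in untreated KO and 2177 in untreated WT libraries. As a share of the library, the sum was 0.0525 to 0.312 CPM in KO oxLDL and 14.4 to 17.5 CPM in WT oxLDL libraries. Without treatment it was 0.0532 to 0.406 CPM in KO and 9.70 to 11.3 CPM in WT libraries, so KO and WT libraries did not overlap in either treatment, and neither did WT oxLDL and untreated WT libraries. Of 60 gene values per genotype, 49 were 0 in KO libraries and 3 were 0 in WT libraries. Gzma, Gzmb, Ncr1, Klri1 and Cd3e had 0 counts in all 6 KO libraries. What remained in KO was mostly Klrb1c, which made up 66.7% of the sum in KO oxLDL and 47.1% in untreated KO libraries.

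**Figure D1:**
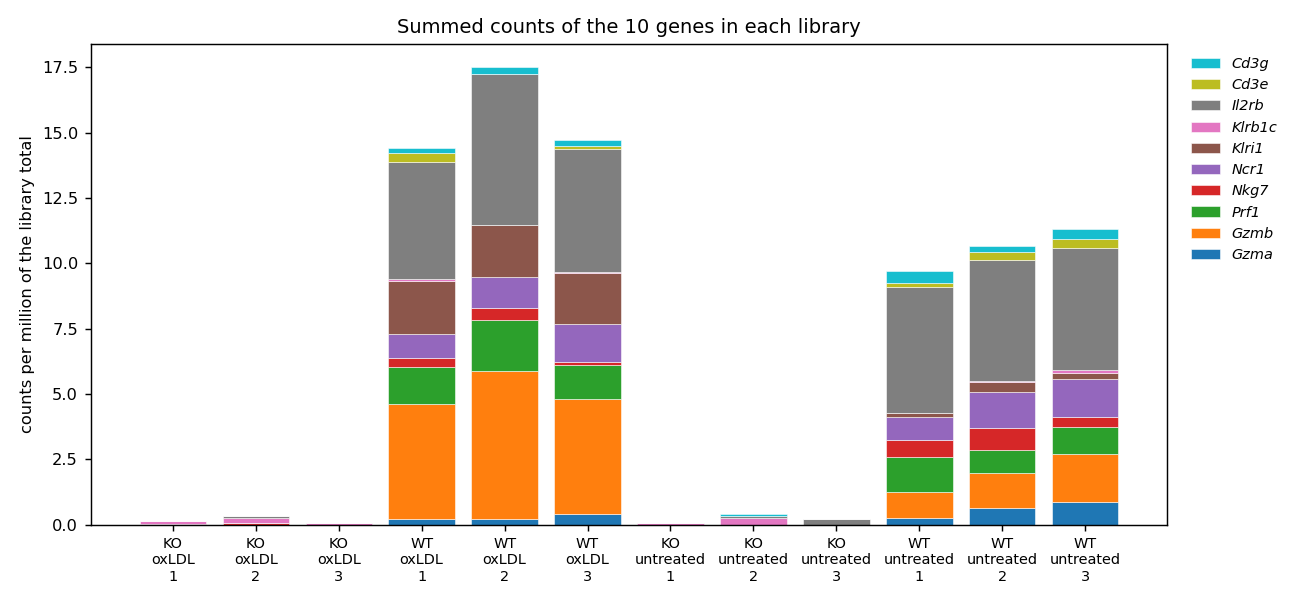
Stacked bars of the 10 genes' counts in each of the 12 libraries, as CPM of the library total on a linear axis, with a colour per gene and libraries ordered as KO oxLDL, WT oxLDL, KO untreated and WT untreated. All 6 KO bars lie at or below 0.406 CPM and all 6 WT bars at or above 9.70 CPM, and the Gzmb and Klri1 layers are thicker in WT oxLDL than in untreated WT libraries.

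Even where they were highest these were rare transcripts, and the CD3 chains and Klrb1c were the rarest of them. By FPKM, the order in WT oxLDL libraries was Gzmb (3.20 ± 0.465), Klri1 (2.26 ± 0.0649), Il2rb (1.11 ± 0.151), Ncr1 (0.725 ± 0.174) and Prf1 (0.560 ± 0.127; SD, n = 3). Nkg7 (0.309 ± 0.168), Gzma (0.256 ± 0.105), Cd3g (0.0624 ± 0.00363), Cd3e (0.0321 ± 0.0366) and Klrb1c (0.0114 ± 0.00988) followed. The ranges of neighbours overlapped for Ncr1 and Prf1, for Nkg7 and Gzma, and among Cd3g, Cd3e and Klrb1c, and the other neighbours were apart. In untreated WT libraries Il2rb led with 1.04 ± 0.0226 FPKM, followed by Gzmb (0.919 ± 0.272), Ncr1 (0.761 ± 0.199), Nkg7 (0.632 ± 0.232) and Gzma (0.535 ± 0.308). Prf1 (0.397 ± 0.0885), Klri1 (0.279 ± 0.110), Cd3g (0.101 ± 0.0349), Cd3e (0.0595 ± 0.0244) and Klrb1c (0.0191 ± 0.0174) came after them. There every neighbouring pair overlapped except Klri1 and Cd3g, although genes further apart in the order, such as Il2rb (1.02 to 1.07 FPKM) and Klri1 (0.184 to 0.400 FPKM), did not.

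**Figure D2:**
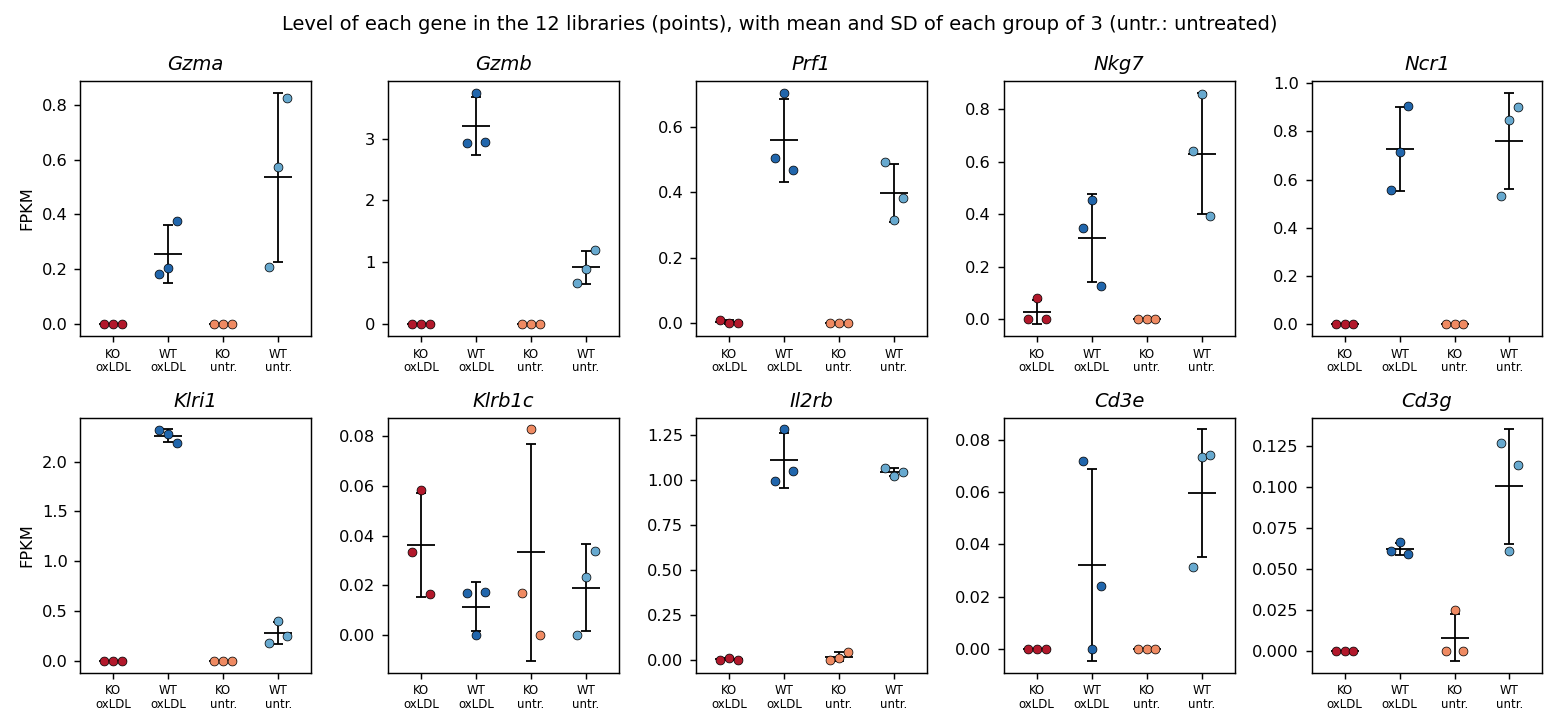
Level of each gene in FPKM (linear axes, a separate scale per panel), with points for libraries and bars for the mean and SD of the 3 libraries of KO oxLDL, WT oxLDL, KO untreated and WT untreated. In 9 panels KO libraries sit at or near 0 while most WT libraries lie above them. The Klrb1c panel has KO and WT libraries intermixed, with an untreated KO library at 0.0828 FPKM, and in the Gzmb and Klri1 panels WT oxLDL libraries lie above untreated WT libraries without overlap.

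The granule proteins were undetected in untreated KO libraries. Gzmb (ENSMUSG00000015437, chromosome 14, 56258838 to 56262260, minus strand of GRCm38, the build used for every position here) encodes granzyme B, a serine protease that cleaves caspases in target cells. It had 0, 0 and 0 counts in KO oxLDL libraries, against 331, 304 and 331 in WT oxLDL libraries. It had 0, 0 and 0 counts in untreated KO libraries, against 77, 74 and 137 in untreated WT libraries. KO and WT libraries did not overlap, and each WT oxLDL library had more counts than any untreated WT library. KO was at least 448-fold lower than WT with oxLDL (adjusted p = 2.63e-08) and at least 97.7-fold lower untreated (adjusted p = 8.29e-07). These and all adjusted p-values below are from the quasi-likelihood test of edgeR, adjusted by Benjamini and Hochberg's method over the 17291 genes that passed the filter on low counts, and a gene was called below 0.05. Where a group had 0 counts in all, the fold is a lower bound, taken as if that group had held 3 counts. The other group enters at its summed counts, without allowance for its spread.

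Prf1 (ENSMUSG00000037202, chromosome 10, 61297833 to 61304680, plus strand) encodes perforin, the pore former. It had 3, 0 and 0 counts in KO oxLDL libraries, against 104, 104 and 96 in WT oxLDL libraries, and 0 in each untreated KO library, against 103, 48 and 79 in untreated WT libraries. Every KO library was below every WT library. With oxLDL the ratio of KO to WT was 0.00709, with a 95% counting interval of 0.00145 to 0.0209 (adjusted p = 3.35e-06), and untreated KO was at least 78.0-fold lower than WT (adjusted p = 1.15e-05).

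Gzma (ENSMUSG00000023132, chromosome 13, 113093825 to 113100981, minus strand) encodes granzyme A, a granule protease with trypsin-like activity. There were 0, 0 and 0 counts in KO oxLDL libraries, against 15, 12 and 30 in WT oxLDL libraries, and 0, 0 and 0 in untreated KO libraries, against 18, 34 and 66 in untreated WT libraries. KO was at least 26.4-fold lower than WT with oxLDL (adjusted p = 0.000515) and at least 40.0-fold lower untreated (adjusted p = 0.000628). The 2 WT groups overlapped. Nkg7 (ENSMUSG00000004612, chromosome 7, 43437073 to 43438249, plus strand) encodes a granule membrane protein needed for efficient degranulation. It had 0, 6 and 0 counts in KO oxLDL libraries, against 25, 24 and 9 in WT oxLDL libraries, and 0 in each untreated KO library, against 49, 46 and 29 in untreated WT libraries. KO oxLDL replicate 2 was the single KO library with Nkg7 counts and still lay below the WT libraries. KO was lower than WT by a log2 difference of -3.73 ± 1.14 with oxLDL (SE, adjusted p = 0.0138) and at least 42.1-fold lower untreated (adjusted p = 0.00157). The oxLDL value rests on the 6 counts of KO oxLDL replicate 2: without that library KO was at 0 and the fitted value, no bound, was -7.68 (adjusted p = 0.00144). Without any other single library the adjusted p was at most 0.0415.

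The NK receptors split, with Ncr1 and Klri1 at 0 counts in KO libraries and Klrb1c not. Ncr1 (ENSMUSG00000062524, chromosome 7, 4337724 to 4345164, plus strand) encodes NKp46, an activating receptor used to define mouse NK cells. Its counts were 0, 0 and 0 in KO oxLDL libraries, against 69, 63 and 110 in WT oxLDL libraries, and 0, 0 and 0 in untreated KO libraries, against 67, 75 and 111 in untreated WT libraries. KO and WT libraries did not overlap, while the 2 WT groups covered nearly the same range of counts. KO was at least 112-fold lower than WT with oxLDL (adjusted p = 1.5e-06) and at least 85.8-fold lower untreated (adjusted p = 5.92e-06).

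Klri1 (ENSMUSG00000067610, chromosome 6, 129697218 to 129717132, minus strand) encodes an inhibitory lectin-like receptor that pairs with KLRE1. It had 0, 0 and 0 counts in KO oxLDL libraries, against 153, 108 and 144 in WT oxLDL libraries, and 0, 0 and 0 in untreated KO libraries, against 13, 20 and 17 in untreated WT libraries. KO and WT libraries did not overlap in either treatment, and neither did the 2 WT groups. KO was at least 188-fold lower than WT with oxLDL (adjusted p = 7.31e-07) and at least 17-fold lower untreated (adjusted p = 0.000111).

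Klrb1c (ENSMUSG00000030325, chromosome 6, 128778485 to 128789215, minus strand) encodes NK1.1, the antigen by which NK cells are stained in several mouse strains. It had 8, 14 and 4 counts in KO oxLDL libraries, against 4, 0 and 4 in WT oxLDL libraries, and 4, 20 and 0 in untreated KO libraries, against 0, 4 and 8 in untreated WT libraries. All groups overlapped, and the gene did not pass the filter on low counts. In a fit without that filter KO differed from WT by a log2 difference of 1.30 ± 1.54 with oxLDL (SE, adjusted p = 0.575) and of 0.93 ± 1.5 untreated (adjusted p = 0.809). Klrb1c and Klri1 have near relatives in the same gene complex, and the assignment of reads common to such copies is not stated, so both values are uncertain to that extent.

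Il2rb (ENSMUSG00000068227, chromosome 15, 78479256 to 78495271, minus strand) encodes the beta chain of the IL-2 and IL-15 receptors, through which both cytokines signal to JAK and STAT5 proteins. Counts were 0, 4 and 0 in KO oxLDL libraries, against 336, 310 and 353 in WT oxLDL libraries. They were 0, 4 and 16 in untreated KO libraries, against 368, 251 and 354 in untreated WT libraries. KO and WT libraries were far apart, and the 2 WT groups overlapped in counts and in FPKM, though not after TMM scaling. KO was lower than WT by a log2 difference of -8.32 ± 0.75 with oxLDL (SE, adjusted p = 1.88e-07) and of -5.60 ± 0.61 untreated (adjusted p = 4e-06). Single KO libraries set the size of both: the untreated value was -7.27 without untreated KO replicate 3, and the oxLDL value was -11.74 without KO oxLDL replicate 2, which leaves KO at 0 counts and is no bound. Both remained called without any single library.

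The CD3 chains were the least abundant of the genes called. Cd3e (ENSMUSG00000032093, chromosome 9, 44998740 to 45009622, minus strand) encodes CD3 epsilon, a signalling chain of the T cell receptor complex. Its counts were 0, 0 and 0 in KO oxLDL libraries, against 25, 0 and 8 in WT oxLDL libraries, and 0, 0 and 0 in untreated KO libraries, against 11, 18 and 24 in untreated WT libraries. WT oxLDL replicate 2 had none, so KO and WT libraries overlapped with oxLDL but not without it. KO was at least 15.3-fold lower than WT with oxLDL (adjusted p = 0.0136) and at least 18.0-fold lower untreated (adjusted p = 0.0191). The oxLDL call was lost without WT oxLDL replicate 1 (adjusted p = 0.0541) and in limma (0.189 and 0.117, where the other settings tried gave as little as 0.00232). The untreated call was lost without untreated KO replicate 1, 2 or 3 or untreated WT replicate 3 (adjusted p = 0.0518, 0.0515, 0.0538 and 0.0510, with 0.00231 as the lowest of the other settings).

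Cd3g (ENSMUSG00000002033, chromosome 9, 44969572 to 44980431, minus strand) encodes CD3 gamma of the same complex. It had 0, 0 and 0 counts in KO oxLDL libraries, against 16, 14 and 16 in WT oxLDL libraries, and 0, 7 and 0 in untreated KO libraries, against 34, 12 and 30 in untreated WT libraries. KO and WT libraries did not overlap in either treatment. KO was at least 21.3-fold lower than WT with oxLDL (adjusted p = 0.00256), and lower by a log2 difference of -3.35 ± 1.18 untreated (SE, adjusted p = 0.0493). That untreated call lay at the threshold: it was lost on leaving out any single library except untreated KO replicate 2, with adjusted p up to 0.137 for untreated WT replicate 1, and was 0.00407 without untreated KO replicate 2. Over all settings tried its adjusted p ran from 0.000974 to 0.137.

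In counts of calls, all 9 genes tested were lower in untreated KO than in untreated WT, and the same 9 were lower in KO with oxLDL. The background of such calls was high: 16.2% of all genes tested were called lower in untreated KO and 27.4% in KO with oxLDL. The KO and WT libraries did not overlap for 9 genes untreated and for 8 with oxLDL, against 44.9% and 62.8% of all genes tested. No gene of the 9 was called higher, where 14.8% of all genes tested were called higher in untreated KO and 30.6% in KO with oxLDL (31% and 57.9% in either direction). Each of the 9 passed the filter on low counts through WT libraries, since 1 KO value of theirs alone reached 10 counts. A gene that passed in this way had to be lower in KO, so these counts describe the 9 genes and are no support by themselves.

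With oxLDL in WT cells, 2 of these transcripts were called changed, Gzmb and Klri1. Gzmb rose by a log2 difference of 2.20 ± 0.28 (SE, adjusted p = 7.16e-05) and Klri1 by 3.39 ± 0.44 (adjusted p = 8.28e-05). These 2 of 9 genes tested were called higher and none was called lower, where 23.9% of all genes tested were called higher and 27.2% lower (51.2% in all). The WT groups did not overlap, after scaling, for 4 of the 9 genes (Gzmb, Klri1, Prf1 and Il2rb), against 58.6% of all genes tested. All of these counts are under the share over all genes, so they set the 9 genes apart in no way. Both calls held in all 18 other settings tried, with log2 differences from 1.14 to 2.44 for Gzmb and from 1.35 to 3.72 for Klri1. The low ends are from limma on log2(FPKM + 1), where the added 1 shrinks differences at such low levels. Fits leaving out 1 library gave 2.02 to 2.44 for Gzmb and 3.17 to 3.72 for Klri1.

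The other 7 genes did not pass in WT. Prf1 had a log2 difference of 0.89 ± 0.48 (adjusted p = 0.149), Il2rb of 0.49 ± 0.44 (0.380) and Ncr1 of 0.35 ± 0.39 (0.50). Gzma and Nkg7 were both at -0.65, with SE 0.75 and 0.94 (adjusted p = 0.522 and 0.613), Cd3e was at -0.40 ± 1.23 (0.822) and Cd3g at -0.23 ± 1.02 (0.880). The SEs leave changes of 1 log2 unit undecided for all 7 at this depth. The sign for Ncr1 turned with the scaling, to -0.06 with library totals alone, under which the median of all genes moved to -0.46 where it was -0.06 with TMM scaling.

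**Figure D3:**
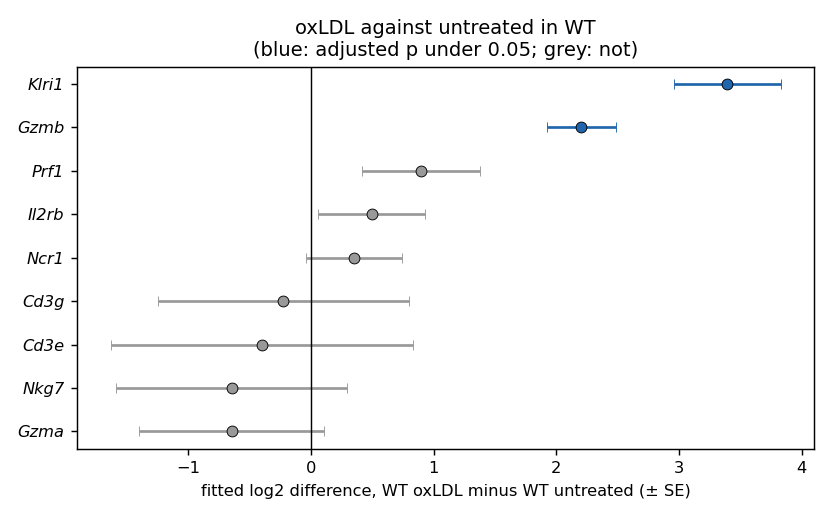
Fitted log2 difference between WT oxLDL and untreated WT libraries for the 9 genes tested, with bars of 1 SE and a line at 0. Klri1 (3.39) and Gzmb (2.20) were called higher, and the other 7 lie within 1 log2 unit of 0.

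As shares of the 10 genes' counts, Gzmb took 31.0% in WT oxLDL and 13.2% in untreated WT libraries, and Klri1 took 13.0% and 2.30%. Il2rb took 32.0% in WT oxLDL and 44.7% in untreated WT libraries, and Ncr1 took 7.76% and 11.6%. Gzmb and Klri1 were then left out, a choice made after their values were seen. The remaining 8 genes summed to 7.95 to 9.83 CPM in WT oxLDL and 8.52 to 9.28 in untreated WT libraries. Those ranges overlapped as shares of the library total, which may not hold after TMM scaling. With TMM scaling Il2rb had 5.34 to 6.86 CPM in WT oxLDL and 4.09 to 4.38 in untreated WT libraries, without overlap. Prf1 had 1.54 to 2.30 and 0.782 to 1.23 CPM, also without overlap. Gzma, Nkg7, Ncr1, Klrb1c, Cd3e and Cd3g overlapped with that scaling too.

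Set against Ncr1 within each library, a measure that does not depend on library size, the same 2 genes stood apart. Gzmb had 3.01 to 4.83 counts per Ncr1 count in WT oxLDL and 0.987 to 1.23 in untreated WT libraries. Klri1 had 1.31 to 2.22 counts per Ncr1 count in WT oxLDL and 0.153 to 0.267 in untreated WT libraries. The ratios of Il2rb overlapped, at 3.21 to 4.92 in WT oxLDL and 3.19 to 5.49 in untreated WT libraries, and so did those of Prf1, at 0.873 to 1.65 and 0.640 to 1.54. They overlapped as well for Gzma (0.190 to 0.273 with oxLDL, 0.269 to 0.595 untreated), Nkg7 (0.0818 to 0.381 and 0.261 to 0.731) and Cd3g (0.145 to 0.232 and 0.160 to 0.507). A ratio within a library shows unequal change and does not say which gene changed.

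**Figure D4:**
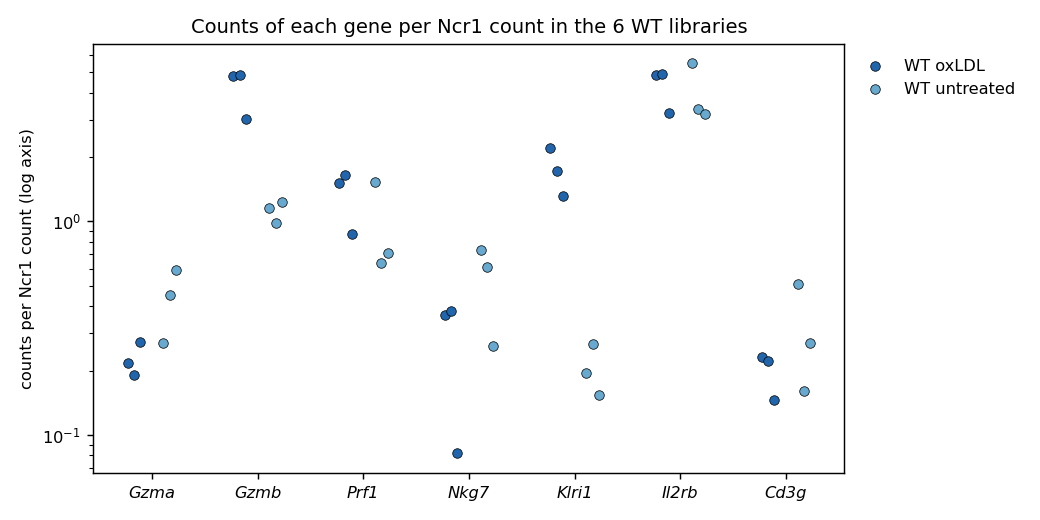
Counts of each gene per Ncr1 count in the same library (log axis), with 1 point for each of the 3 WT oxLDL and 3 untreated WT libraries. The groups separate for Gzmb (3.01 to 4.83 with oxLDL, 0.987 to 1.23 untreated) and Klri1 (1.31 to 2.22 with oxLDL, 0.153 to 0.267 untreated) and overlap for the other 5 genes drawn.

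In KO cells the treatment could not be followed in most of these genes, because both KO groups held 0 or few counts. None of the 9 genes was called, by edgeR's test, by DESeq2 or by limma, and 0.0116% of all genes tested were called in this comparison. At an unadjusted p under 0.05 there was 1 gene, Cd3g, with 0 counts in KO oxLDL and 7 in untreated KO libraries. Il2rb had 4 counts over the KO oxLDL libraries and 20 over the untreated KO libraries, a log2 difference of -2.23 ± 1.07 (SE, adjusted p = 0.726). Klrb1c, which did not pass the filter, had 26 counts over the KO oxLDL and 24 over the untreated KO libraries. In the fit without the filter its log2 difference was 0.10 ± 1.47 (SE), which leaves its change undecided. The other genes were at 0 or under the floor in both KO groups, or too few for a fold.

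The interaction, which asks whether the oxLDL change differed between KO and WT, called none of the 9 genes in edgeR's test or DESeq2, where 41.7% of all genes tested were called, 22.1% higher and 19.6% lower. At an unadjusted p under 0.05 there were 2, Nkg7 and Il2rb. A gene at 0 in both KO groups gives this test no measured change in KO. On the scale of log2(FPKM + 1), where 0 has a value, limma called Gzmb (-1.14 ± 0.14, SE, adjusted p = 3.67e-05) and Klri1 (-1.35 ± 0.08, adjusted p = 7.35e-08), which with KO at 0 is the WT change with its sign turned by construction. For Il2rb edgeR's value was -2.73 ± 1.15 (adjusted p = 0.0743), which passed without KO oxLDL replicate 2 (0.0215) or without untreated KO replicate 1 (0.0107), and reached 0.577 without untreated KO replicate 3. That result thus turned on the Il2rb counts of single KO libraries.

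Lists of other genes of these cells and pathways were read beside the 10 genes, and their counts stand against the shares called over all genes: 14.8% higher and 16.2% lower in untreated KO, 30.6% higher and 27.4% lower in KO with oxLDL, and 23.9% higher and 27.2% lower with oxLDL in WT. A list gene at or near 0 counts in KO passed the filter through WT libraries and could only be called lower. In lists with such genes, the counts of lower calls in KO are no support by themselves. Of 18 tested genes of the T cell receptor complex and its signalling, 2 rose and 6 fell in untreated KO relative to untreated WT, 2 rose and 7 fell in KO with oxLDL, and 2 rose and 2 fell with oxLDL in WT, where both counts are under the share over all genes. The list's median log2 difference in untreated KO was -1.84, with genes at 0 set to their bounds, against -0.01 over all genes. Trac, the constant region of the alpha chain, had 0 counts in untreated KO and 91 in untreated WT libraries, at least 30.9-fold lower (adjusted p = 0.0211). Cd6, a T cell adhesion receptor, had 0 and 27 counts (at least 9.16-fold lower, adjusted p = 0.0431). Its counts by untreated WT library were 0, 4 and 23, so KO and WT libraries overlapped. Cd28, the T cell co-stimulator, went the other way, with 17457 counts in untreated KO and 2533 in untreated WT libraries (log2 difference 2.75 ± 0.08, adjusted p = 3.31e-12), and so did Lat, the adaptor below the receptor (1.34 ± 0.40, adjusted p = 0.0184).

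The sum of the T cell list was set by Cd28 in KO libraries. Its 22 genes in the table summed to 76.9 to 78.8 CPM in KO oxLDL, 11.0 to 13.8 in WT oxLDL, 75.0 to 92.0 in untreated KO and 27.5 to 29.7 in untreated WT libraries. Cd28 made up 91.7 to 93.8% of it in KO libraries. Without Cd28, left out after its values were seen, the other 21 genes summed to 5.50 to 6.52 CPM in KO oxLDL, 10.5 to 13.2 in WT oxLDL, 5.17 to 6.06 in untreated KO and 15.6 to 16.6 in untreated WT libraries, so KO lay below WT in both treatments. Trac, Trbc1, Cd8b1 and Sh2d1a had 0 counts in all 6 KO libraries, whereas Cd3d, the third CD3 chain, had 9 counts in KO oxLDL, 5 in WT oxLDL, 4 in untreated KO and 4 in untreated WT libraries. Some of the genes at 0 in KO were low in WT as well: Sh2d1a had 0 counts in WT oxLDL and 9 in untreated WT libraries, and Cd8b1 had 8 and 20. Of 11 tested T cell identity and helper subset genes, 2 rose and 3 fell in untreated KO, 2 rose and 3 fell in KO with oxLDL, and 2 rose and 1 fell with oxLDL in WT. Il7r, the IL-7 receptor, rose (1.49 ± 0.05, adjusted p = 1.48e-11), and Icos, a co-stimulator of activated T cells, had 0 counts in untreated KO and 78 in untreated WT libraries (at least 26.5-fold lower, adjusted p = 0.0132). By untreated WT library the Icos counts were 4, 18 and 56. With oxLDL Icos was not lower in KO, with 4, 11 and 2 counts in KO and 0, 5 and 0 in WT libraries (not called, adjusted p = 0.578). Its interaction was called (adjusted p = 0.0164), a result that rests on these low counts.

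Among NK receptor genes, 9 of 20 tested fell and 2 rose in untreated KO (16.2% and 14.8% over all genes), and 11 fell and 2 rose in KO with oxLDL (27.4% and 30.6% over all genes). With oxLDL in WT 2 rose and 2 fell, under the 23.9% and 27.2% over all genes, and the medians in these comparisons were -2.21, -2.71 and -0.10. Klrc1, which encodes the inhibitory receptor NKG2A, had 0 counts in untreated KO and 104 in untreated WT libraries (at least 35.3-fold lower, adjusted p = 0.000224). Klri2, the activating relative of Klri1, had 0 and 76 counts (at least 25.8-fold lower, adjusted p = 0.00296). Klra9, also of this list, went the other way and had the largest rise. It had 251 counts in untreated KO and 63 in untreated WT libraries (1.97 ± 0.56, adjusted p = 0.0155). With oxLDL it had 189 counts in KO and 19 in WT libraries (2.88 ± 0.63, adjusted p = 0.00112). Tyrobp, the adaptor DAP12 that macrophages also use, rose by 0.36 ± 0.09 in untreated KO (adjusted p = 0.00492) and made up most of the list's sum of 365 to 483 CPM in KO oxLDL, 189 to 218 in WT oxLDL, 395 to 443 in untreated KO and 354 to 371 in untreated WT libraries. Without Tyrobp, a choice made after its values were seen, the list summed to 6.92 to 7.88 CPM in KO oxLDL, 22.2 to 26.3 in WT oxLDL, 6.39 to 8.52 in untreated KO and 13.3 to 14.8 in untreated WT libraries. Klrc1, Klre1, Klrg1, Klri2, Klra7 and Klra8 had 0 counts in all 6 KO libraries. Some of these were low in WT as well: Klra7 had 0 counts in WT oxLDL and 10 in untreated WT libraries, and Klrg1 had 27 and 16. Klrk1, which encodes the activating receptor NKG2D, rose with oxLDL in WT, with 2643 counts in WT oxLDL and 305 in untreated WT libraries (3.54 ± 0.49, adjusted p = 2.42e-05), while Klrd1, the CD94 partner of NKG2A, had 0 and 40 counts (at least 9.89-fold lower, adjusted p = 0.0247).

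Regulators and cytokines of cytotoxic lymphocytes were mostly lower in KO. Of 11 tested, 1 rose and 10 fell both in untreated KO and in KO with oxLDL (16.2% and 27.4% lower over all genes), with medians of -4.04 and -5.16. Among the 10 were genes at or near 0 counts in KO, which passed the filter through WT libraries and had to be lower. Eomes, a transcription factor of NK cells and CD8 T cells, had 0 counts in untreated KO and 74 in untreated WT libraries (at least 25.1-fold lower, adjusted p = 0.0134), and Xcl1, a chemokine of NK cells, had 0 and 95 (at least 32.2-fold lower, adjusted p = 0.000828). In WT with oxLDL 4 rose and 1 fell, against 23.9% and 27.2% over all genes. Ifng, the macrophage-activating interferon, had 4131 counts in WT oxLDL and 166 in untreated WT libraries (5.07 ± 0.33, adjusted p = 8.18e-09), or 15.1 ± 1.21 and 0.586 ± 0.119 FPKM (SD, n = 3 each). Ccl5, a T cell attracting chemokine, rose too, with 147724 and 8454 counts (4.55 ± 0.15, adjusted p = 5.19e-12), whereas Il12rb2, a chain of the IL-12 receptor, fell with oxLDL in WT (-0.79 ± 0.11, adjusted p = 3.27e-05) and was the 1 gene higher in untreated KO (0.66 ± 0.11, adjusted p = 0.000268).

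Granule genes outside the 10 were called in both directions, where 31% of all genes were called in untreated KO, 57.9% in KO with oxLDL and 51.2% with oxLDL in WT. Of 9 tested granzymes and granule processing genes, 2 rose and 4 fell in untreated KO, 1 rose and 6 fell in KO with oxLDL, and 4 rose and none fell with oxLDL in WT. Gzmc, a further granzyme of the Gzmb cluster, had 0 counts in untreated KO and 100 in untreated WT libraries (at least 33.9-fold lower, adjusted p = 0.000406). Serpinb9, an inhibitor of granzyme B, fell in untreated KO (-1.81 ± 0.10, adjusted p = 2.76e-09) and rose with oxLDL in WT (1.46 ± 0.10, adjusted p = 9.6e-09), beside Srgn, the granule proteoglycan (1.93 ± 0.06, adjusted p = 1.27e-12). Of 9 tested genes for granule release, 2 rose and 5 fell in untreated KO, 2 rose and 4 fell in KO with oxLDL, and 4 rose and 3 fell with oxLDL in WT. Stx11, a syntaxin needed for degranulation, fell in untreated KO (-1.07 ± 0.07, adjusted p = 8.97e-09), and Lyst, a lysosomal trafficking regulator, rose (0.67 ± 0.04, adjusted p = 4.49e-09).

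In the IL-2 and IL-15 pathway around Il2rb, 10 of 13 tested genes rose and 1 fell with oxLDL in WT, with a median of 1.89, where 23.9% of all genes rose and 27.2% fell. In untreated KO 1 rose and 9 fell (14.8% and 16.2% over all genes), and in KO with oxLDL 2 rose and 11 fell (30.6% and 27.4% over all genes). Socs3, a feedback inhibitor of cytokine receptors, rose by 3.98 ± 0.07 with oxLDL in WT (adjusted p = 1.37e-14), and Socs1, of the same family, by 3.09 ± 0.28 (adjusted p = 1.29e-06). Socs1 had 0 counts in untreated KO and 143 in untreated WT libraries (at least 48.5-fold lower, adjusted p = 3.39e-07), and Cish, a STAT5 target, fell by 2.35 on the log2 scale there (SE 0.29, adjusted p = 1.69e-05). Il2rg, the chain shared by this cytokine family, was far more abundant than Il2rb, with 41684 counts in untreated KO and 93903 in untreated WT libraries (-1.20 ± 0.05, adjusted p = 1.22e-10). Il15ra, the chain that presents IL-15, was looked up after its values were seen and rose in WT with oxLDL (2.33 ± 0.11, adjusted p = 1.21e-10).

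**Figure D5:**
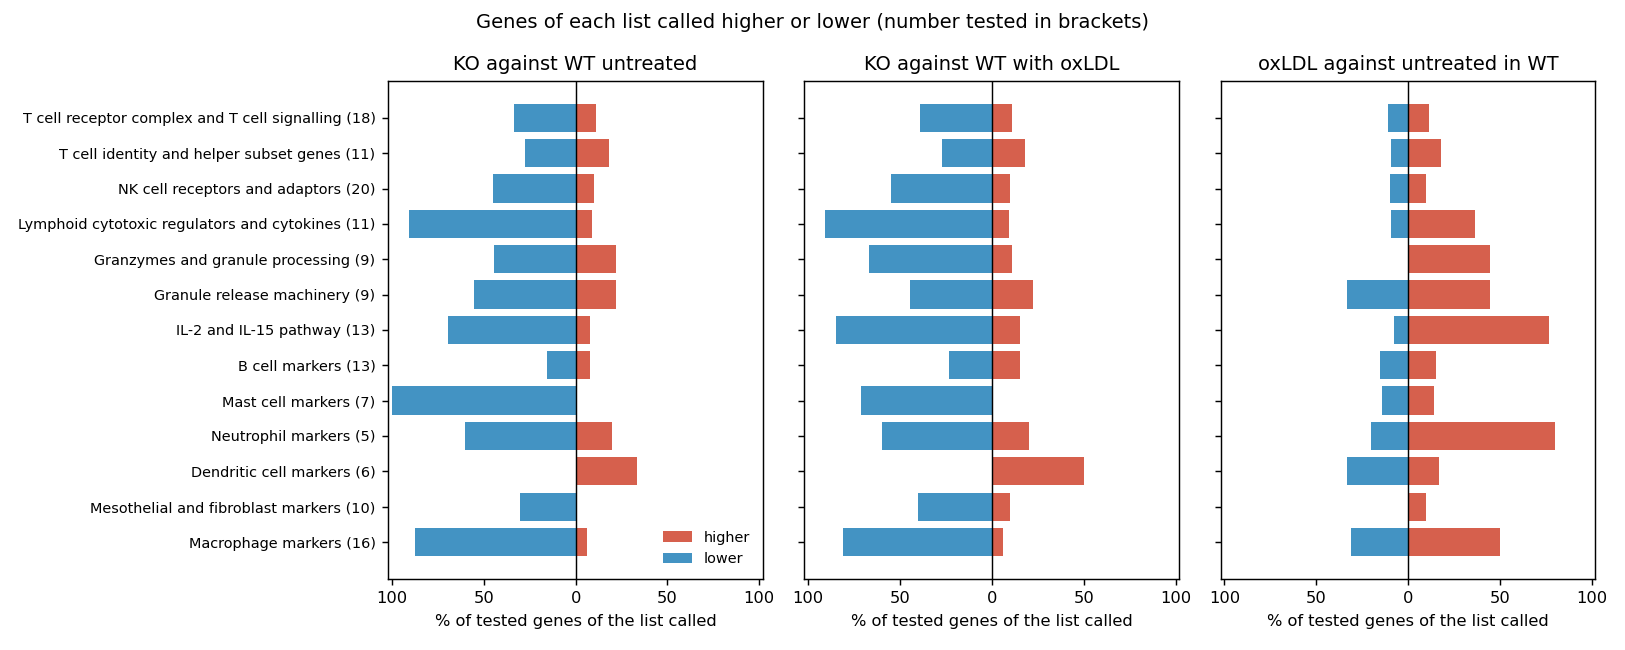
Share of the tested genes of each list called higher (right of 0) and lower (left of 0), in percent, with a panel for each comparison. The cytotoxic regulators have 10 of 11 tested genes lower in KO in both treatments, and the IL-2 and IL-15 pathway has 10 of 13 higher with oxLDL in WT.

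Some markers of other cell types were also called between KO and WT, and their part in the differences above was not tested. Mast cell genes were called lower more often than all genes were, and B cell genes were not called more often in either direction. Of 7 tested mast cell genes, 7 fell in untreated KO, led by the tryptases Tpsab1 (-3.34 ± 0.79, adjusted p = 0.0046) and Tpsb2 (-2.37 ± 0.36, adjusted p = 0.000135), and 5 fell in KO with oxLDL, against 16.2% and 27.4% over all genes. Their list summed to 3.88 to 5.05 CPM in KO oxLDL, 31.4 to 31.7 in WT oxLDL, 3.52 to 4.63 in untreated KO and 14.0 to 16.5 in untreated WT libraries. Hdc, which makes histamine and is not confined to mast cells, carried the WT oxLDL sum, with 4771 counts in WT oxLDL and 184 in untreated WT libraries (5.15 ± 0.32, adjusted p = 4.48e-09). Without Hdc, left out after its values were seen, the sum was 3.65 to 4.53 CPM in KO oxLDL, 7.48 to 8.77 in WT oxLDL, 3.26 to 4.20 in untreated KO and 13.4 to 15.8 in untreated WT libraries, so WT oxLDL lay below untreated WT.

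Of 13 tested B cell genes, 1 rose and 2 fell in untreated KO, against 14.8% and 16.2% over all genes. Those that fell were Ighm (-1.74 ± 0.13, adjusted p = 8.39e-08) and Igkc (-1.83 ± 0.14, adjusted p = 9.92e-08), which encode antibody chains, and Cd22, an inhibitory receptor, rose (1.07 ± 0.05, adjusted p = 6.64e-10). The B cell list summed to 206 to 224 CPM in KO oxLDL, 105 to 115 in WT oxLDL, 213 to 236 in untreated KO and 157 to 170 in untreated WT libraries. Cd22 made up 89.1 to 90.8% of it in KO libraries. Without Cd22, again left out after its values were seen, the sum was 19.98 to 21.3 CPM in KO oxLDL, 53.5 to 67.3 in WT oxLDL, 19.6 to 25.8 in untreated KO and 57.3 to 66.1 in untreated WT libraries, so KO lay below WT.

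Macrophage markers themselves changed. Of 16 tested, 1 rose and 14 fell in untreated KO (14.8% and 16.2% over all genes), 1 rose and 13 fell in KO with oxLDL (30.6% and 27.4%), and 8 rose and 5 fell with oxLDL in WT (23.9% and 27.2%). Timd4, a receptor of resident peritoneal macrophages, fell by 6.57 on the log2 scale in untreated KO (SE 0.62, adjusted p = 9.98e-07), and Marco, a scavenger receptor, by 5.07 (SE 0.12, adjusted p = 2.1e-13). Cd68, a lysosomal marker, was the gene that rose (0.40 ± 0.05, adjusted p = 1.66e-05). Neutrophil genes had 1 of 5 tested higher and 3 lower in untreated KO, dendritic cell genes 2 of 6 higher and none lower, and mesothelial and fibroblast genes none of 10 higher and 3 lower, where 14.8% of all genes were higher and 16.2% lower. None of these lists had a gene called with oxLDL in KO.

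Genes most like each of the 10 in profile were taken as those with the smallest mean absolute difference of centred log2 levels over the 12 libraries. For Gzmb they were Uba7 (0.115), Itgal (0.116) and Parp12 (0.117). Itgal averaged 70.7 CPM in KO oxLDL, 892 in WT oxLDL, 68.7 in untreated KO and 239 in untreated WT libraries, far above Gzmb in level. For Klri1 they were Dyrk2 (0.0775), F10 (0.0786) and Ripk2 (0.0817), for Ncr1 they included Gm21188 (0.0980) and Pla2g7 (0.106), and for Il2rb they included Ptprm (0.176) and Creb5 (0.177). For Prf1 the nearest was Themis2 (0.114) and for Gzma it was Lyz2 (0.142), the macrophage lysozyme, with 11400 CPM in KO oxLDL, 20507 in WT oxLDL, 11832 in untreated KO and 22952 in untreated WT libraries. For Nkg7 it was Mcpt4 (0.143), for Cd3e 4931428F04Rik (0.0904) and for Cd3g Klhl6 (0.0726), and no other gene of the 10 was among the 3 nearest of any. A pseudocount of 0.5 CPM flattens the profiles of all 9 genes, since KO libraries are at or near 0, so a match need not share the size of the difference between KO and WT. Dyrk2, the match of Klri1, averaged 48.4 CPM in untreated KO and 70.2 CPM in untreated WT libraries, where Klri1 was at least 17-fold lower in KO.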

How the data were processed

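Poly(A) RNA was sequenced in pairs, per the labels' protocols, and HISAT2 2.0, Bowtie 0.12.2 and build mm8 are named in the submitters' processing notes. Of 21990 genes matched by Entrez identifier, 99.9% overlapped their GRCm38.p6 position, so positions are given as GRCm38. The authors deposited raw counts and FPKM per gene, per the file headers, and no source used here gives the counting tool, annotation or strand setting. Counts were fitted in edgeR 4.0.16 (quasi-likelihood test, R 4.3.3) with TMM scaling, filterByExpr and 4 groups in 1 fit. The SE given with an edgeR log2 difference is its absolute value divided by the square root of the test's F statistic. These SEs are therefore approximate. Alternatives were DESeq2 1.42.0, limma 3.58.1 on log2(FPKM + 1) and, chosen after seeing the data, log2(FPKM + 0.1), library totals alone, no filter, a replicate block and leaving out each library. The fit was tested on simulated data. Replicate numbers were not used as pairs in the fit.

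The 10 genes and the lists were chosen with earlier results of these data known. Named list genes were the 2 largest calls per direction and the 2 most abundant, and exceptions are stated. Some genes of like profile are not reported here. List genes absent from the table were not analysed here. Intervals and floors cover counting error alone.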

Additional observations from a re-analysis of the deposited data

How the results depend on the processing

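Of 29 results on single genes, 21 kept their direction and call in all 18 alternatives. In WT with oxLDL, limma on log2(FPKM + 1) called 4 of the 9 genes where edgeR called 2, adding Prf1 and Nkg7 (adjusted p = 0.0313 and 0.0205). Ncr1, not called there, turned to -0.059 with library totals, -0.028 in limma on log2(FPKM + 1) and -0.054 on log2(FPKM + 0.1). Cd3e there ran from -1.79 to 0.16 over fits leaving out 1 library, the latter without WT oxLDL replicate 2. For the interaction, limma called 2 genes at either pseudocount, and fits leaving out 1 library called 0 to 1, where edgeR called 0. With oxLDL in KO, 2 of all genes were called by edgeR, 110 by DESeq2, 1 without the filter, 1 and 0 by limma, and 0 to 57 leaving out 1 library, the highest without WT oxLDL replicate 1. The replicate block called 0 there, and it took Cd3g out of the untreated KO calls (8 of 9 genes, adjusted p = 0.0746), as did dropping the filter (0.0807). Same-numbered libraries did not deviate together: of 18 correlations, from -0.156 to 0.107, 1 was over 0.1, and 3 of 12 libraries correlated best with their own number, so the numbers were not read as pairs. Cd3e with oxLDL was not called by limma, leaving 8 genes. Low counts limit Cd3e, Cd3g, Nkg7 and Klrb1c.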
